A study of Mus musculus with 12 samples.

Results

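The growth hormone and insulin-like growth factor (IGF) axis of mouse liver was followed through 9 genes: Igf1, Igfals, Ghr, Socs2, Igfbp1, Igfbp2, Igfbp3, Igfbp4 and Igfbp7. They were given as a list of symbols and were found through the probesets, the groups of short probes that read one transcript, whose single annotated gene was one of them. All 9 of 9 were named among 18193 genes on the array, and all 9 passed the filter on dim probesets that left 11899 genes to test. Liver RNA came from 12 male C57BL/6 mice, 1 Affymetrix array each. The 6 control mice received no antibiotic, and the 6 penicillin mice received low-dose penicillin in their drinking water after weaning. All livers were taken after 7 weeks of intervention, and all mice were kept on 12 hours of light and 12 hours of dark with free access to food and water. No source used here gave the penicillin dose, the cages or the hour of collection. The mouse was the replicate, and animals that shared a cage would not be independent as the tests assume.

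Pituitary growth hormone binds its receptor on hepatocytes and, through the kinase Jak2 and the transcription factor Stat5b, drives the transcription of Igf1, Igfals and the feedback inhibitor Socs2. Most circulating IGF1 is made in liver and travels in a complex with a binding protein, chiefly Igfbp3, and the acid-labile subunit encoded by Igfals. Igfbp1 is regulated acutely: insulin represses it by keeping FoxO factors out of the nucleus, and fasting, glucocorticoids and cell stress induce it.

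The 250 bases before the annotated gene start are shown for Igfbp1, the gene with the largest group difference, and for Igfals, a growth hormone target. Both come from RefSeq, build GRCm38.p6, plus strand, read 5′ to 3′. Igfbp1 is at chr11:7197537-7197786, with the FoxO and insulin response half-site CAAAACA in capitals. Igfals is at chr17:24877594-24877843, with a match to the STAT5 site TTCNNNGAA in capitals.
Igfbp1: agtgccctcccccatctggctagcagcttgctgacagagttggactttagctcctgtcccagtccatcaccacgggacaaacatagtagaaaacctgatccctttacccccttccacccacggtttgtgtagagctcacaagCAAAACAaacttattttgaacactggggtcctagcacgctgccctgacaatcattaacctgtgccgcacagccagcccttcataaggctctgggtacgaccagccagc
Igfals: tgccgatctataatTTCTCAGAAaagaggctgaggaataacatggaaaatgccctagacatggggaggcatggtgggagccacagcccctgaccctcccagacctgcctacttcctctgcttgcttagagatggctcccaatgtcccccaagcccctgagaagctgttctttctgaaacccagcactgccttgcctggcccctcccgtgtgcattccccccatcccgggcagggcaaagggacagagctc
With -1 as the base before the start, the Igfbp1 half-site lies at -108 to -102 and the Igfals match at -236 to -228. Searched on both strands, CAAAACA occurred in 5.56% and TTCNNNGAA in 7.02% of 32851 upstream windows of this length. A second Igfals window, upstream of an alternative start, held the match TTCCTAGAA at -58 to -50. RefSeq windows were matched for 8 of the 9 members. Neither the ATF4 amino acid response site TGATGCAA, found in 0.791% of windows, nor the C/EBP site TTGCGCAA, in 0.164%, was present in any of them. These matches describe letters in the windows and no binding was measured.

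The Igfbp1 gene, at chr11:7197787-7202546, and the Igfbp3 gene, at chr11:7206086-7215498, are neighbours that point toward each other, with 3539 bases between them. Igf1 lies at chr10:87858265-87937047 and Socs2 on the same chromosome at chr10:95383903-95417321.

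The arrays were alike, with pairwise correlations of 0.989 to 0.997 over probesets, but a few stood apart in gene groups that bear on the IGF axis. The mean centred log2 level of 15 immediate early genes, rapidly induced by stress and growth signals, was 2.18, 2.18 and 1.52 in controls 1, 3 and 5 and -0.84 to -0.27 elsewhere. A clock score, genes in phase with Dbp minus genes in antiphase, was 1.82 in control 6 and 2.10, 1.88 and 2.00 in penicillin 1, 5 and 6, against -2.38 to 0.68 in the rest. The mean of 14 acute phase genes was 1.68 in control 6 and -0.41 to 0.23 elsewhere. All 10 hepatocyte markers were measured, Alb among them at 15.00 ± 0.03 in controls and 14.97 ± 0.03 with penicillin (SD, n = 6, log2 intensity). Ass1, a dimmer one, varied more, at 6.93 ± 1.03 and 7.40 ± 0.44. The mean centred level of all 10 ran from -0.13 to 0.16 in controls and from -0.14 to 0.16 with penicillin. Of 7 neutrophil markers 2 passed the filter, and their mean was -0.32 to 2.28 in controls and -1.69 to -0.51 with penicillin. Of 7 cholangiocyte markers 4 passed, at 0.07 to 0.27 and -0.53 to 0.08. The part of these cells in the member values was not tested.

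The comparison asked whether low-dose penicillin was accompanied by a different hepatic IGF programme. Igf1, its carrier subunit Igfals and the growth hormone receptor Ghr differed little between the groups. Igfbp1 showed a 2.88-fold lower mean with penicillin, but with wide and overlapping spreads. Igfbp2, Igfbp7 and Socs2 had lower means and Igfbp3 a higher one, each within the spread between mice. By limma with Benjamini-Hochberg adjustment over all genes, 0 of 9 members passed an adjusted p of 0.05. The background was 0% of 11899 genes, none of which went below an adjusted p of 0.265. At an unadjusted p under 0.05 there was 1 member of 9, Igfbp1, against 7.98% of all genes (950 genes). It was lower with penicillin, as were 3.66% of all genes at that p, while 4.33% were higher. The 2 groups overlapped for every member, whereas 0.261% of genes lay wholly above and 0.151% wholly below the controls. Of the members 4 were higher and 5 lower, beside 52.8% and 47.2% of all genes, and their median difference was -0.04 beside 0.01.

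**Figure D1:**
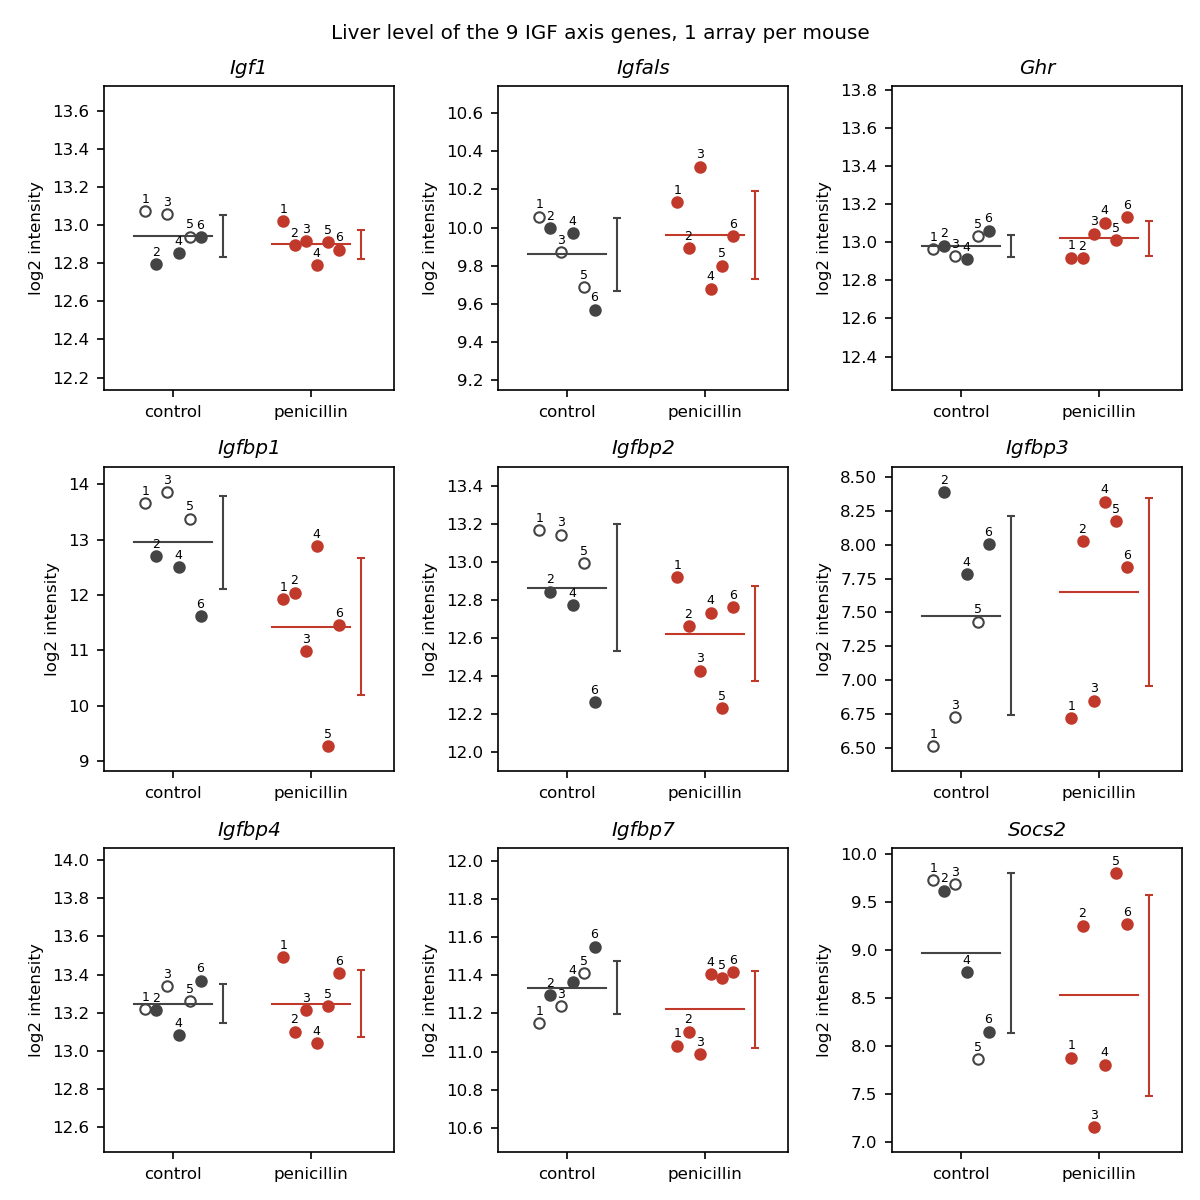
Log2 intensity (y axis) of each of the 9 genes in 6 control and 6 penicillin livers, 1 point per array with its replicate number, the mean as a line and the SD as a bar. Open circles are controls 1, 3 and 5, and the axis spans differ between panels. Groups overlap in every panel, and Igfbp1, Igfbp3 and Socs2 spread over more than 1.5 log2 units within each group.

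Igf1, the circulating ligand that mediates much of the growth effect of growth hormone, ran from 12.80 through a median of 12.94 to 13.07 in controls. With penicillin it ran from 12.79 through 12.90 to 13.02. The ranges lay almost on top of each other, with control 1, control 3 and penicillin 1 at the top. The difference was -0.04 on the log2 scale (SE 0.06, 95% interval -0.17 to 0.09, adjusted p = 0.912). The sign of this small difference was not stable: it was 0.04 without controls 1, 3 and 5. Only 14.5% of genes varied less within groups than Igf1 did on its brightest probeset. There the SD was 0.11 in controls and 0.08 with penicillin, beside 0.14 and 0.21 on the next brightest.

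The 4 Igf1 probesets did not vary together. The brightest, 1452014_a_at, was highest in control 1, control 3 and penicillin 1, at 13.07, 13.06 and 13.02. The next, 1434413_at, was at its lowest in penicillin 1 (12.13) and control 3 (12.23) and at its highest in penicillin 5 and 6 (12.70 each), where the brightest stood near its mean. With group means removed, 1434413_at and 1437401_at followed each other across the 12 arrays (Pearson r = 0.97, Spearman rho = 0.96, permutation adjusted p = 1.8e-04 and 3.0e-04 over 6 pairs). Both ran against 1452014_a_at (r = -0.56 and -0.63, rho = -0.52 and -0.58, permutation p = 0.0532 and 0.0259), which did not pass adjustment (0.106 and 0.0777). Group differences on the 4 probesets were -0.04 to 0.04. The order of single livers in Igf1 therefore depended on the probeset, while the group difference was near 0 on all 4.

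**Figure D2:**
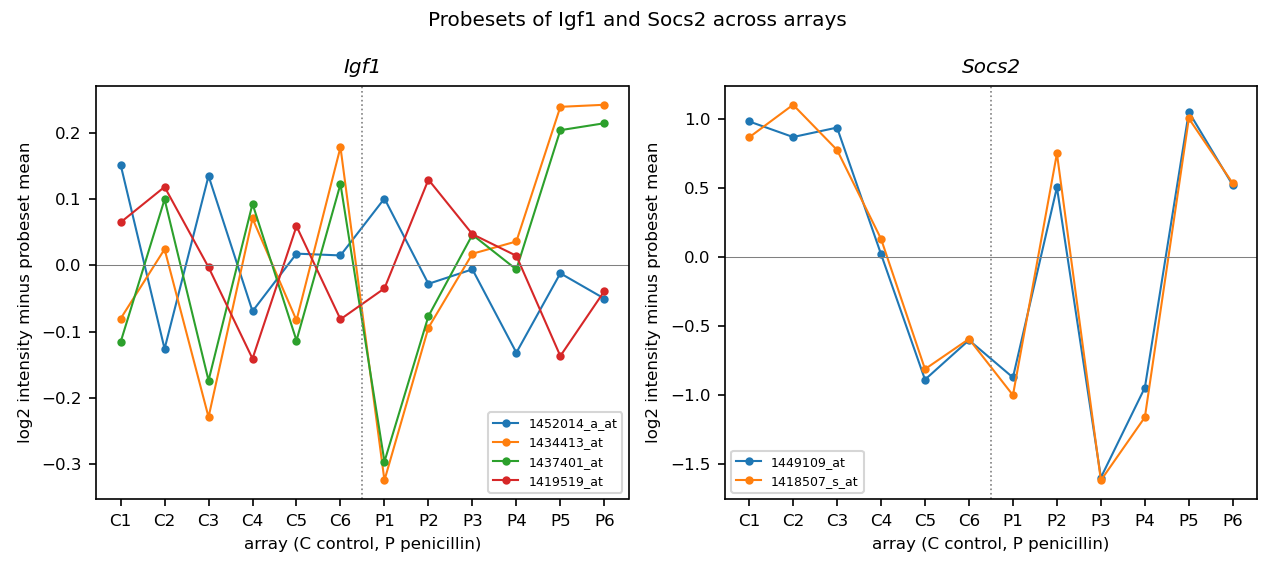
Log2 intensity minus each probeset's own mean (y axis) across the 12 arrays (x axis, C control and P penicillin, dotted line between groups) for Igf1 and Socs2, 1 line per probeset that passed the filter. The Igf1 probesets 1434413_at and 1437401_at move together. Their tendency to run against 1452014_a_at did not pass adjustment. Both Socs2 probesets trace the same course.

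Igfals, which holds IGF1 in its long-lived circulating complex, ran from 9.57 through 9.92 to 10.06 in controls and from 9.68 through 9.92 to 10.32 with penicillin. The medians were the same to 2 decimals, control 6 was lowest and penicillin 3 highest. The difference was 0.10 (SE 0.11, 95% interval -0.14 to 0.35, adjusted p = 0.871). It was 0.03 without penicillin 3 and 0.05 without control 6, in a range over single omissions of 0.03 to 0.16.

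Ghr, the receptor through which growth hormone acts on hepatocytes, ran from 12.91 through 12.97 to 13.06 in controls and from 12.92 through 13.03 to 13.13 with penicillin. The difference was 0.04 (SE 0.05, 95% interval -0.08 to 0.16, adjusted p = 0.900), and 3 probesets gave -0.01 to 0.04. Only 6.88% of genes had a smaller spread within groups than its brightest probeset. There the SD was 0.06 in controls and 0.09 with penicillin, beside 0.16 and 0.19 on its dimmest.

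Socs2, induced by growth hormone through Stat5b and a brake on the same receptor, was among the most variable genes, with 99.5% of genes less variable within groups. Controls ran from 7.86 through 9.19 to 9.73, and penicillin livers from 7.15 through 8.57 to 9.80. High and low livers occurred in both groups: controls 1, 2 and 3 stood at 9.62 to 9.73, control 4 at 8.77 and controls 5 and 6 at 7.86 and 8.15. Among penicillin livers, 2, 5 and 6 stood at 9.25 to 9.80 and 1, 3 and 4 at 7.15 to 7.88. The difference was -0.44 (SE 0.48, 95% interval -1.48 to 0.60, adjusted p = 0.870). Both probesets that passed the filter gave it, at -0.44 and -0.49. It moved with single livers, to -0.17 without penicillin 3 and -0.70 without penicillin 5. It was -1.06 without control 6 and penicillin 1, 5 and 6, and -0.14 with the immediate early score as a covariate.

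Cish, another growth hormone-induced inhibitor of the same family, was also uneven among livers, from 6.63 to 10.11 in controls and 6.69 to 9.18 with penicillin. It was high in controls 1 and 3 (10.11 and 9.99) and in penicillin 5 and 6 (8.74 and 9.18), where Socs2 was high too. Control 2, however, combined the lowest Cish with a Socs2 of 9.62, and penicillin 4 a Cish of 8.27 with a Socs2 of 7.80. The transcriptional repressor Bcl6, which growth hormone represses in male liver, was at its highest in control 2 (10.06) and at its lowest in penicillin 4 (6.17); among controls it was lowest in 1 and 3 (7.29 and 7.32).

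Igfbp1, a secreted binding protein of the fed-to-fasted switch, varied more than any other member, and 99.6% of genes varied less. Controls 1 to 6 stood at 13.66, 12.71, 13.85, 12.51, 13.38 and 11.62. Penicillin livers 1 to 6 stood at 11.93, 12.04, 10.98, 12.89, 9.27 and 11.45. Controls 1, 3 and 5 were the highest of all 12 and penicillin 5 by far the lowest, yet penicillin 4 exceeded 3 controls and control 6 lay below 3 penicillin livers. On the linear scale of the deposited intensities the lowest and highest control read 3148 and 14809, and the lowest and highest penicillin liver 617 and 7572.

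The mean was 12.95 ± 0.84 in controls and 11.43 ± 1.23 with penicillin (SD, n = 6). The log2 difference was -1.53 (SE 0.54, 95% interval -2.69 to -0.37, unadjusted p = 0.0136, adjusted p = 0.570 by limma), larger in size than that of 99.9% of genes. The 3 highest controls were the livers with high immediate early genes. Leaving out the highest controls brings the group means closer in any case. Without them the difference was -0.85 (SE 0.64, adjusted p = 0.996), and with their score as a covariate it was -0.72 (SE 0.60, adjusted p = 0.987). Leaving out single livers gave -1.82 to -1.10, the smallest without penicillin 5, and none reversed the direction.

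Igfbp2, another binding protein secreted by hepatocytes, ran from 12.26 through 12.92 to 13.17 in controls and from 12.23 through 12.70 to 12.92 with penicillin. Controls 1, 3 and 5 again led, and penicillin 5 was again lowest, next to control 6. The difference was -0.24 (SE 0.15, 95% interval -0.57 to 0.09, adjusted p = 0.743). It was -0.0031 without controls 1, 3 and 5, whose omission as the highest controls brings the means closer in any case. It was -0.36 without control 6, and it turned to 0.03 with the immediate early score as a covariate.

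**Figure D3:**
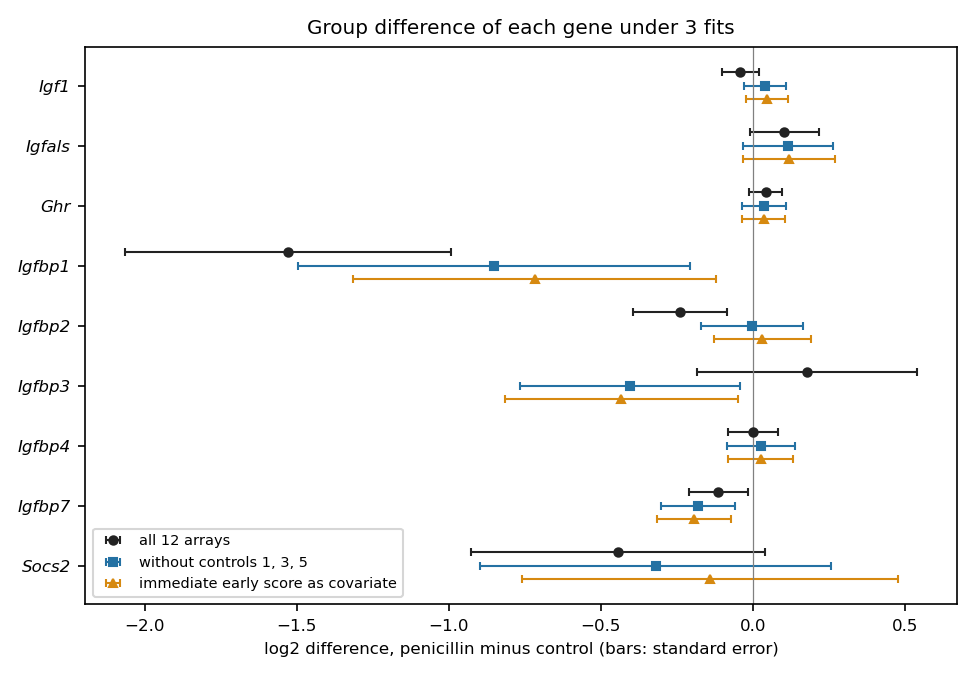
Log2 difference, penicillin minus control (x axis), of each gene with its standard error, from all 12 arrays, without controls 1, 3 and 5, and with the immediate early score as a covariate. Igfbp1 moves from -1.53 to -0.85 and -0.72, Igfbp2 from -0.24 to near 0, and Igfbp3 from 0.18 to -0.41 and -0.43. No gene passed in any of these fits. Controls 1, 3 and 5 were the highest controls in Igfbp1 and Igfbp2.

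Igfbp3, the main carrier of IGF1 in blood, which liver makes largely outside hepatocytes, ran from 6.52 through 7.61 to 8.38 in controls and from 6.72 through 7.93 to 8.32 with penicillin. It was low in controls 1 and 3 (6.52 and 6.73) and in penicillin 1 and 3 (6.72 and 6.85), and at 7.43 or more in the other 8 livers. The difference was 0.18 (SE 0.36, 95% interval -0.61 to 0.96, adjusted p = 0.938), and it turned to -0.41 without controls 1, 3 and 5 and to -0.01 without control 1 alone. The other probeset gave 0.08.

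All 10 listed markers of liver endothelial cells were measured, among them Stab2 at 8.82 ± 0.17 in controls and 8.73 ± 0.17 with penicillin (SD, n = 6). Their mean centred level ran from -0.12 to 0.27 in controls and from -0.13 to 0.07 with penicillin. The 4 livers lowest in Igfbp3 were also the 4 lowest in these markers, at -0.13 to -0.09. Of 12 stellate cell and fibroblast markers 11 passed, and their mean, -0.16 to 0.40 in controls and -0.38 to 0.21 with penicillin, was also lowest in penicillin 3, penicillin 1 and control 1. The part of these cells in the Igfbp3 values was not tested. In whole liver, fewer cells of a type and less RNA per cell cannot be told apart.

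Igfbp4, a binding protein that restrains IGF action, ran from 13.08 through 13.24 to 13.37 in controls and from 13.04 through 13.22 to 13.49 with penicillin. Its difference was 0.00087 (SE 0.08, 95% interval -0.18 to 0.18, adjusted p = 0.999), and 6 probesets gave -0.06 to 0.02. On the brightest the SD was 0.10 in controls and 0.18 with penicillin, beside 0.46 and 0.43 on the dimmest. Igfbp7, a relative with low affinity for IGFs that is abundant in vessels, ran from 11.15 through 11.33 to 11.55 in controls and from 10.99 through 11.25 to 11.42 with penicillin. Penicillin 1, 2 and 3 lay below every control and penicillin 4, 5 and 6 among them. The difference was -0.11 (SE 0.10, 95% interval -0.32 to 0.09, adjusted p = 0.818). The next probeset, dimmer at a mean of 7.69 beside 11.28, gave 0.10, and the dimmest gave -0.05.

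Members also varied together among mice of the same group. With group means removed, 36 pairs of members were compared over the 12 livers by permutation within groups. Igfbp1 and Igfbp2 varied together (r = 0.85, rho = 0.78, permutation p = 3.9e-04 and 0.00623, adjusted p = 0.0126 for r and 0.0748 for rho). Igf1, on its brightest probeset, ran against Igfbp3 (r = -0.86, rho = -0.84, permutation p = 7.0e-04 and 0.00263, adjusted p = 0.0126 for r and 0.0473 for rho). Igfals ran against Igfbp7 (r = -0.82, rho = -0.83, permutation p = 0.00191 and 0.00106, adjusted p = 0.0229 for r and 0.0382 for rho). These 3 pairs passed by r and 33 did not. The first pair has 1 probeset a gene, but the other pairs depended on the probeset. With Igf1 on 1434413_at or 1437401_at, the correlation with Igfbp3 turned to 0.65 and 0.67, and on 1419519_at it was -0.10, none of which passed (permutation, adjusted p = 0.174, 0.188 and 0.975). On the other Igfbp3 probeset, with Igf1 on its brightest, it was -0.87. With Igfbp7 on its other probesets the correlation with Igfals was -0.04 and -0.69 (permutation, adjusted p = 0.997 and 0.291).

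Without controls 1, 3 and 5 the 3 correlations were 0.79, -0.72 and -0.83, and without the 2 livers farthest from the median of the first gene 0.80, -0.75 and -0.68. With these fewer livers none of the 3 passed adjustment (adjusted p from 0.186 to 0.423). The pairs of Igf1 with its companions as growth hormone targets, Socs2 (r = 0.09) and Igfals (r = 0.28), did not pass. The neighbours Igfbp1 and Igfbp3 had r = -0.33.

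Around the members, 8 lists of pathway genes were described by counts, and 0 genes of any list passed. Of 13 genes repressed by insulin through FoxO factors, 2 were higher and 11 lower, with a median of -0.20 beside 0.01 over all genes. Over single omissions the median ran from -0.25 to -0.12. It was -0.12 without penicillin 5 and -0.13 without penicillin 6 or without controls 1, 3 and 5. It was -0.11 without the 4 livers with a high clock score and -0.09 with that score as a covariate. Irs2, the insulin receptor substrate, was at 7.14 to 8.16 in controls and 6.69 to 7.97 with penicillin, a difference of -0.61 (SE 0.23, adjusted p = 0.571). Pck1, the entry enzyme of gluconeogenesis, differed by -0.19 (SE 0.10, adjusted p = 0.669), and its coactivator Ppargc1a by -0.30 (SE 0.19, adjusted p = 0.735). G6pc, glucose-6-phosphatase, differed by -0.20 (SE 0.32) and Trib1, a regulator of hepatic lipid synthesis, by -1.08 (SE 0.69).

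The mean centred level of these 13 genes, Igfbp1 not among them, followed Igfbp1 from liver to liver. It was lowest in penicillin 5 (-0.42), penicillin 6 (-0.33) and control 6 (-0.24) and highest in control 5 (0.28), control 1 (0.26) and control 3 (0.24). The 3 lowest are among the 4 livers with a high clock score (1.88, 2.00 and 1.82 in the same order); the part of clock phase in the score was not tested. Penicillin 4, the treated liver highest in Igfbp1, was also the treated liver highest in this score (0.12). With group means removed the correlation was r = 0.86 and rho = 0.86 over 12 livers (permutation p = 4.3e-04 and 0.00127, adjusted p = 0.00344 for r over the 8 lists). It was 0.83 without controls 1, 3 and 5 (adjusted p = 0.0306) and 0.88 without penicillin 5 and 6, the 2 livers farthest from the median (adjusted p = 0.00544). Without the 4 livers with a high clock score it was 0.81 over 8 livers, which did not pass (permutation p = 0.0111, adjusted p = 0.0693). The list of insulin and IGF receptor signalling, which shares Irs2, also passed (r = 0.74, rho = 0.91, permutation p = 0.00431 and 2.3e-04, adjusted p = 0.0172 for r). It gave 0.85 without control 1 and penicillin 3 (adjusted p = 0.00884), and 0.77 without controls 1, 3 and 5, which did not pass (adjusted p = 0.104). Without the 4 livers with a high clock score it was 0.82, which did not pass either (adjusted p = 0.0693). The other 6 lists, the ATF4 list among them (r = 0.10), did not pass. Nor did they without the 4 livers with a high clock score, where several values moved far. There growth hormone receptor signalling gave 0.90 (permutation, adjusted p = 0.0693), beside 0.12 over all 12. The female-biased list gave 0.78 there, beside -0.49, and the male-biased list -0.70, beside 0.12. The comparison of Igfbp1 with the lists was chosen after the values were seen.

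**Figure D4:**
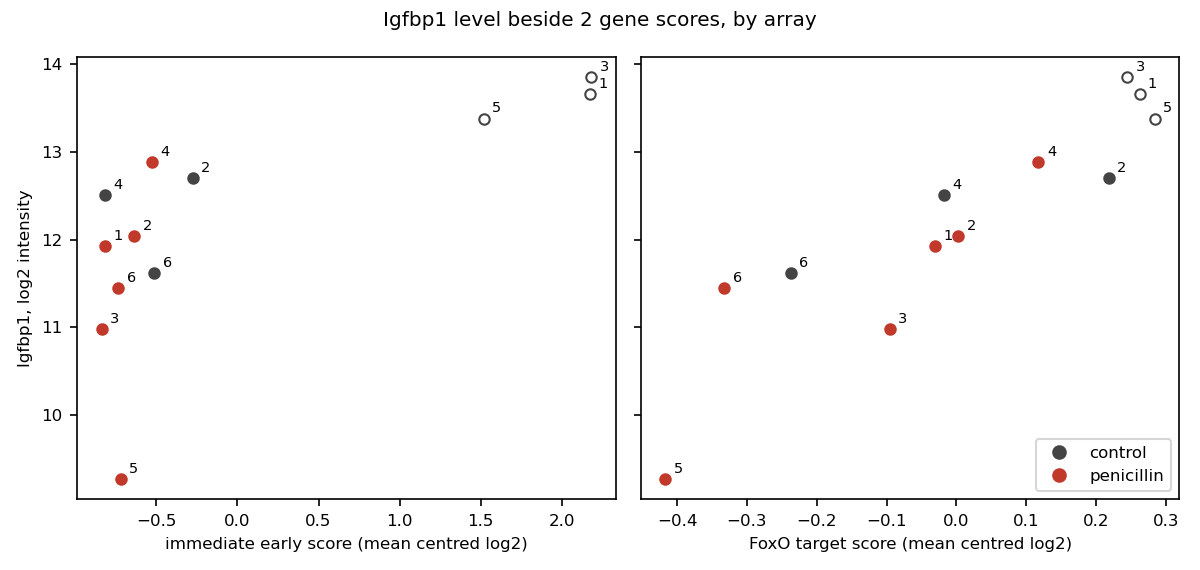
Igfbp1 log2 intensity (y axis) against the mean centred level of 15 immediate early genes (left) and of 13 insulin-repressed FoxO targets (right), 1 point per liver with its replicate number; open circles are controls 1, 3 and 5. On the left these 3 controls stand alone at 1.52 to 2.18, while on the right the livers spread along the whole range from -0.42 to 0.28.

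Of 10 tested genes of the ATF4 and amino acid response, which cell stress uses to induce Igfbp1, 3 were higher and 7 lower (median -0.15). Eif2ak3, the stress kinase PERK, differed by -0.83 (SE 0.17, adjusted p = 0.276), Ddit3 by -1.20 (SE 0.51, adjusted p = 0.594) and Atf4 by -0.45 (SE 0.18, adjusted p = 0.584). Ddit3 was at 10.27, 10.13 and 8.68 in controls 1, 3 and 5 and at 7.54 or less in every other liver. The list median was -0.05 without those controls, but also -0.05 without control 5 alone and -0.06 without penicillin 2, in a range over single omissions of -0.25 to -0.05.

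Of 17 tested genes of growth hormone receptor signalling, 6 were higher and 11 lower (median -0.07). Stat3, which carries cytokine signals, differed by -0.40 (SE 0.11, adjusted p = 0.444) and Socs3, its feedback inhibitor, by -0.96 (SE 0.42, adjusted p = 0.602). Both were highest in control 6, at 10.35 and 9.36, the liver with high acute phase genes and the lowest Igfals. The phosphatase Ptpn1 differed by -0.17 (SE 0.08, adjusted p = 0.647). In the core of the pathway, Jak2 differed by 0.02 (SE 0.08), Stat5a by -0.09 (SE 0.15), Stat5b by -0.21 (SE 0.13) and Cish by -0.19 (SE 0.68), and none of them passed.

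Genes that respond to the male pattern of growth hormone were divided. Of 12 tested male-biased genes, 7 were higher and 5 lower (median 0.03). Mup10, a major urinary protein of a family of near-identical copies, differed by 0.49 (SE 0.08, adjusted p = 0.265) with the groups apart. Cyp4a12a, a fatty acid hydroxylase, differed by 0.50 (SE 0.16, adjusted p = 0.546) and Bcl6 by -1.02 (SE 0.52, adjusted p = 0.665). Of 6 tested female-biased genes, 3 were higher and 3 lower. Their median of -0.13 had no stable sign: it was 0.02 without control 6, -0.0029 without penicillin 3, 0.03 with no filter (11 genes) and 0.13 with a stricter filter (2 genes). The smallest p belonged to Cyp17a1 (-0.45, SE 0.28), Atp6v0d2 (-0.35, SE 0.26) and Fmo2 (-0.28, SE 0.35).

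Among 11 further genes, listed as ligands, receptors and binding proteins, 4 were higher and 7 lower (median -0.05). The list included Igf2bp1 and Igf2bp3, whose proteins bind RNA rather than IGFs. Igf2, the fetal ligand, stood at 5.15 ± 0.11 in controls and 5.13 ± 0.09 with penicillin (SD, n = 6), close to the filter of 4.73, below which probesets were left out. The receptor Igf1r, also dim at 5.40 in controls and 5.32 with penicillin, differed by -0.09 (SE 0.07). The clearance receptor Igf2r differed by 0.0025 (SE 0.13) and the insulin receptor Insr by 0.06 (SE 0.11). The members of this list with the smallest p were Igfbp6 (-0.42, SE 0.23, adjusted p = 0.685), Igf2bp1 (-0.11) and Ins2 (-0.10). All 8 tested proteases of IGF binding proteins and their inhibitors were lower (median -0.09), as were 47.2% of all genes. Their differences ran from -0.36 to -0.02, and 4 of the 12 listed were not tested. Mmp2 differed by -0.32 (SE 0.11), Htra1 by -0.22 (SE 0.10) and Mmp14 by -0.36 (SE 0.17), with adjusted p of 0.567 to 0.638. Of the 11 stellate cell and fibroblast markers, 10 were lower too (median -0.19), as were all 4 cholangiocyte markers (median -0.31), and their part in the protease values was not tested. The protease median was -0.04 without the 4 livers with a high clock score. Of 19 tested genes of insulin and IGF receptor signalling, 10 were higher and 9 lower (median 0.0035). Behind Irs2, the smallest p belonged to Rictor (-0.16, SE 0.09) and Tsc1 (0.12, SE 0.07), regulators of the kinase mTOR.

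**Figure D5:**
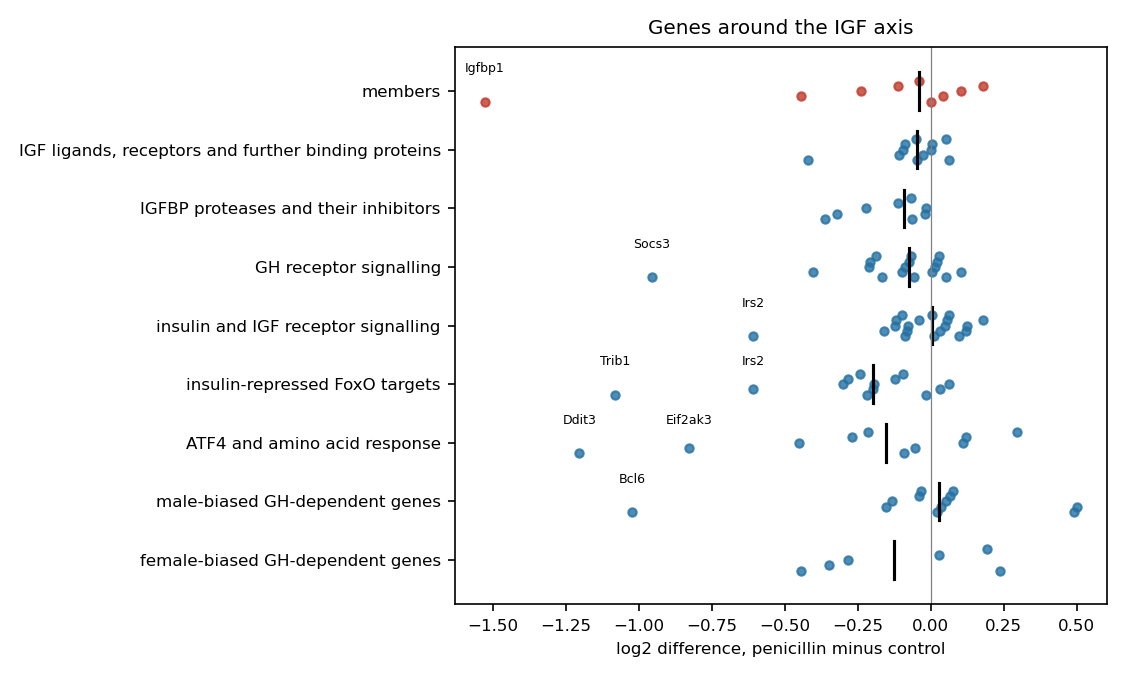
Log2 difference, penicillin minus control (x axis), of every tested gene of the 9 members and of 8 pathway lists, 1 point per gene with the list median as a bar. Medians lie between -0.20 and 0.03, and the named points, Igfbp1 and genes such as Ddit3, Trib1, Bcl6 and Socs3, stand far to the left of their lists.

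The genes whose pattern over the 12 livers was most like a member's, by Pearson correlation after removal of group means, were named for 3 members as a description. For Igfbp1 they were Cth, which makes cysteine from cystathionine (r = 0.92), Odf3b (r = 0.91) and Cmbl (r = 0.90). For Igf1 on its brightest probeset they were Bfsp2 (r = 0.96), Fam53b (r = 0.96) and Herpud1, a gene of the endoplasmic reticulum stress response (r = 0.93). For Socs2 they were Eif4ebp2, a repressor of translation (r = 0.87), the liver pyruvate kinase Pklr (r = 0.85) and Gm32461 (r = 0.82). Each is the highest of nearly 11899 correlations, so these are high values by choice.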

How the data were processed

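The authors deposited 1 table of probeset intensities on a linear scale, made with RMA per the submitters' processing notes, with settings that no source used here states. RMA equalises the array distributions and so removes shifts common to most genes. Log2 was taken here before any test. Of 45037 probesets other than 64 controls, 34945 had 1 gene in the platform annotation, 932 several and 9160 none; symbols were updated through gene identifiers with RefSeq (GRCm38.p6, 18032 found, 162 not). Probesets with a mean under 4.73 (the median) were left out, and the brightest probeset stood for each of 11899 genes. Penicillin was compared with control by limma 3.58.1 in R 4.3.3 (linear model, empirical Bayes, two-sided, Benjamini-Hochberg over all genes), tested on simulated data. Correlations used 100000 two-sided permutations within groups. The files hold no detection calls, and the number of arrays limits the precision.

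Members and lists were chosen with earlier results of these data known. The rule named all members, the 3 genes with the smallest p of each pathway list, Igf2, Igf1r, Igf2r, Insr, Jak2, Stat5a, Stat5b and Cish, and the 3 genes most like Igf1, Igfbp1 and Socs2; other genes were named after their values were seen. Of 251 listed genes, 228 were named on the array. The alternatives were other filters, scalings, probeset choices, designs and omissions of arrays.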

Additional observations from a re-analysis of the deposited data

How the results depend on the processing

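limma called 0 genes in all 26 alternatives, with 488 to 1407 genes at an unadjusted p under 0.05, and no member passed in any of 231 member values (smallest adjusted p = 0.295, Igfbp1 with array weights). Direction was kept in 212 of these. Igf1 (-0.04) turned to 0.0050 with the mean of its probesets, 0.039 with the second brightest, 0.039 without controls 1, 3 and 5 and 0.047 with the immediate early score as covariate. That score turned Igfbp2 to 0.030 and Igfbp3 to -0.43, and leaving out controls 1, 3 and 5 turned Igfbp3 to -0.41. Igfbp4, near 0, turned to -0.026 with the mean of probesets, -0.046 with the second brightest, -0.0051 with array weights, -0.054 with the clock score and -0.11 without control 6 and penicillin 1, 5 and 6. Igfbp7 turned to 0.10 on its second brightest probeset. Omission of single arrays gave -0.014 to 0.36 for Igfbp3 (negative without control 1) and -0.048 to 0.043 for Igfbp4. The cause was not tested.

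The median of growth hormone receptor signalling was -0.13 under the stricter filter, -0.021 without control 6 and penicillin 1, 5 and 6, and -0.11 to -0.013 over single omissions, nearest 0 without penicillin 3. Under the stricter filter, which tests fewer genes, the ligand and receptor list stood at 0.0025 and the female-biased list at 0.13; the latter was -0.32 without control 6 and penicillin 1, 5 and 6. Insulin and IGF receptor signalling ran from -0.039 (without penicillin 1) to 0.025. The 3 member correlations that passed lost their calls with fewer arrays. Without controls 1, 3 and 5 they were 0.79, -0.72 and -0.83, and without the 2 farthest arrays 0.80, -0.75 and -0.68. On other probesets, chosen after the values were seen, Igf1 with Igfbp3 was 0.65, 0.67 and -0.10 and Igfals with Igfbp7 -0.044 and -0.69, and these did not pass.

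The replicate block left Igfbp1 at -1.53 (adjusted p = 0.441) and called 0 genes, with a smallest adjusted p of 0.0732 by limma. The SE fell for Igfbp3 (0.36 to 0.14), Igfbp7 (0.10 to 0.06), Igf1, Igfals and Igfbp4. It rose for Igfbp1, Igfbp2, Ghr and Socs2 (0.48 to 0.55). With group means removed from each gene, same-numbered livers correlated over genes at -0.26 to 0.39, above 0.1 in 4 of 6 pairs. On the same values, each of the 12 arrays was compared with the 6 of the other group. The array of its own number was the most alike for 5 of them. The labels do not call the numbers pairs, so the main fit had no block. Whether they are pairs was not settled.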
